A study of Mus musculus with 12 samples.

Results

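The EGF receptor ligands and ErbB receptors were followed here as 9 genes, of 17175 in the deposited table, across 12 libraries of mouse small intestine. The members were the rows whose symbol equalled Areg, Ereg, Egf, Hbegf, Tgfa, Btc, Egfr, Erbb2 or Erbb3, and all 9 were found: 6 ligands and 3 receptors. The 4 groups held 3 libraries each: Bmpr1a cKO distal intestine, WT distal intestine, Bmpr1a cKO proximal intestine and WT proximal intestine. Bmpr1a is the gene of a receptor through which cells sense bone morphogenetic proteins (BMPs), a cKO is a conditional knockout, and the study's title places it in work on BMP and Wnt signals and the length of villi. The labels give the genotype as WT or Bmpr1a cKO and name no treatment. The Cre driver, the strain and the age of the mice are not given in the sources used here. Whether each library of a group stands for its own animal is not stated, although the labels number the animals. A p-value here thus covers the spread among these libraries alone. That spread may be technical, except where Y-linked reads set cKO library 1 apart, as given below.

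Ligands of this family are made as membrane-anchored precursors and are released by metalloproteases, ADAM17 among them. They bind EGFR, which pairs with itself or with the relatives ERBB2, which has no known ligand of its own, and ERBB3, which has little kinase activity and recruits phosphoinositide 3-kinase once phosphorylated. In the small intestine EGF signals keep crypt cells dividing, and EGF is a standard ingredient of the medium in which intestinal organoids grow.

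Library depth was 15225731 to 17722756 reads in cKO distal libraries, 11242024 to 14504077 in WT distal, 16661259 to 17388612 in cKO proximal and 14840053 to 16381314 in WT proximal libraries. Summed over the whole gene, Bmpr1a itself passed no threshold between cKO and WT. It stood at 511, 668 and 486 scaled reads in cKO distal libraries and at 438, 527 and 631 in WT distal libraries, with a log2 fold change of 0.061 ± 0.19 (SE; limma adjusted p = 0.852). In proximal libraries it stood at 911, 833 and 1087 in cKO and at 1029, 772 and 1019 in WT, with a log2 fold change of 0.0085 ± 0.19 (limma adjusted p = 0.983). A sum over the whole gene does not tell whether part of it was deleted, and the labels do not say in which cells it was, so this level does not check the genotype labels. Both cKO libraries numbered 1 held 0 reads from Y-linked genes and the other 10 libraries held such reads. Library 1 of each cKO group was thus no technical repeat of libraries 2 or 3. Every WT library held such reads, so the genotypes were not matched in this respect. Mitochondrial transcripts took 16.4% ± 9.82 of reads in cKO distal libraries, 29.8% ± 7.69 in WT distal, 11.96% ± 2.60 in cKO proximal and 22.8% ± 4.71 in WT proximal libraries (SD, n = 3 each). All 12 epithelial markers, Epcam and Vil1 among them, had reads in each group. The segment labels were checked against 6 markers of proximal and 6 of distal intestine: 5 proximal markers were lower and 6 distal markers higher in cKO distal than in cKO proximal libraries, and 6 and 5 in WT.

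Of the ligand genes, 3 lie close together on chromosome 5 of GRCm38 (mm10). Epiregulin (Ereg) spans chr5:91074622-91093646 on the plus strand and amphiregulin (Areg) chr5:91139599-91148432 on the plus strand, 45952 bp apart. Betacellulin (Btc) spans chr5:91357261-91402994 on the minus strand, 208828 bp beyond Areg. The family's remaining gene of this stretch, Epgn, lies at chr5:91027464-91035215. The results below turn on Areg and Btc, whose levels moved alike, so the 250 bases before each gene's start are shown as RefSeq gives them for GRCm38.p6, at chr5:91139349-91139598 (plus strand) for Areg and chr5:91402995-91403244 (minus strand) for Btc. Capitals mark the cAMP response element TGACGTCA and the TATA box TATAAA in Areg, and in both genes CGTCA, the reverse complement of TGACG, a part of that element.
Areg: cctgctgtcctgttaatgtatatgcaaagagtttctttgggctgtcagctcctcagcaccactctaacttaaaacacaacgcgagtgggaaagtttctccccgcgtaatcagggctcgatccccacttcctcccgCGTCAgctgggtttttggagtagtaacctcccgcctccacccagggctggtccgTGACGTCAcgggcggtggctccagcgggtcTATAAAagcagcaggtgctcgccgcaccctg
Btc: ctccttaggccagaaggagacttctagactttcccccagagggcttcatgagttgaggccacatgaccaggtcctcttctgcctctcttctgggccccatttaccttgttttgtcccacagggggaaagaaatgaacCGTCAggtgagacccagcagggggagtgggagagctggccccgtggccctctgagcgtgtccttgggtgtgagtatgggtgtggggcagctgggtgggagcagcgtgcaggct
Motifs were searched on both strands of a window of 250 bases before to 50 after the start, in 32851 mouse promoters. TGACGTCA was present in 1.79% of all promoters and began 61 bases before the start of Areg. TATAAA was present in 13.6% and began 31 bases before that start. The shorter element TGACG, which every full element also holds, was present in 20.8% of all promoters and in the windows of Areg, Btc and Erbb2. Apart from the full element, its match began 115 bases before the start in Areg and 113 bases before it in Btc. Of the other motifs searched, the TCF motif CTTTGA (16.0% of promoters), the SMAD palindrome GTCTAGAC (0.213%) and the AP-1 motif TGANTCA (7.81%) were in none of the 6 members' windows, and the BMP-SMAD motif GGCGCC (11.9%) was in that of Tgfa only. A match describes letters, not binding. RefSeq windows were matched for 6 of the 9 members; those of Ereg, Hbegf and Erbb3 were not analysed here.

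Levels are scaled read counts, that is (reads + 1) divided by a library's size factor, and levels of different genes are compared only after division by exon length in kilobases (kb). In each of the 4 groups Erbb3 had the highest mean level per kb and Egf the lowest. Erbb3 averaged 1178 ± 363 scaled reads per kb in cKO distal libraries, 611 ± 218 in WT distal, 839 ± 260.2 in cKO proximal and 655 ± 272 in WT proximal libraries (SD, n = 3 each). Erbb2 came next in 3 groups, with 635 ± 224 in cKO distal, 285 ± 151 in WT distal and 474 ± 99.8 in cKO proximal libraries. In WT proximal libraries Areg came second at 525 ± 278, ahead of Erbb2 at 247 ± 73.1. Egfr, the receptor that binds all 6 ligands, was far below both relatives, at 20.6 ± 2.06 in cKO distal, 20.8 ± 3.59 in WT distal, 17.0 ± 5.07 in cKO proximal and 21.0 ± 14.9 in WT proximal libraries. Neighbours in the order often did not differ beyond their spread. In cKO distal libraries the ranges overlapped between Erbb3 and Erbb2, between Tgfa and Hbegf and between Btc and Egfr, and in WT distal libraries the ranges of Areg, Tgfa, Ereg and Hbegf each overlapped that of the next.

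**Figure D1:**
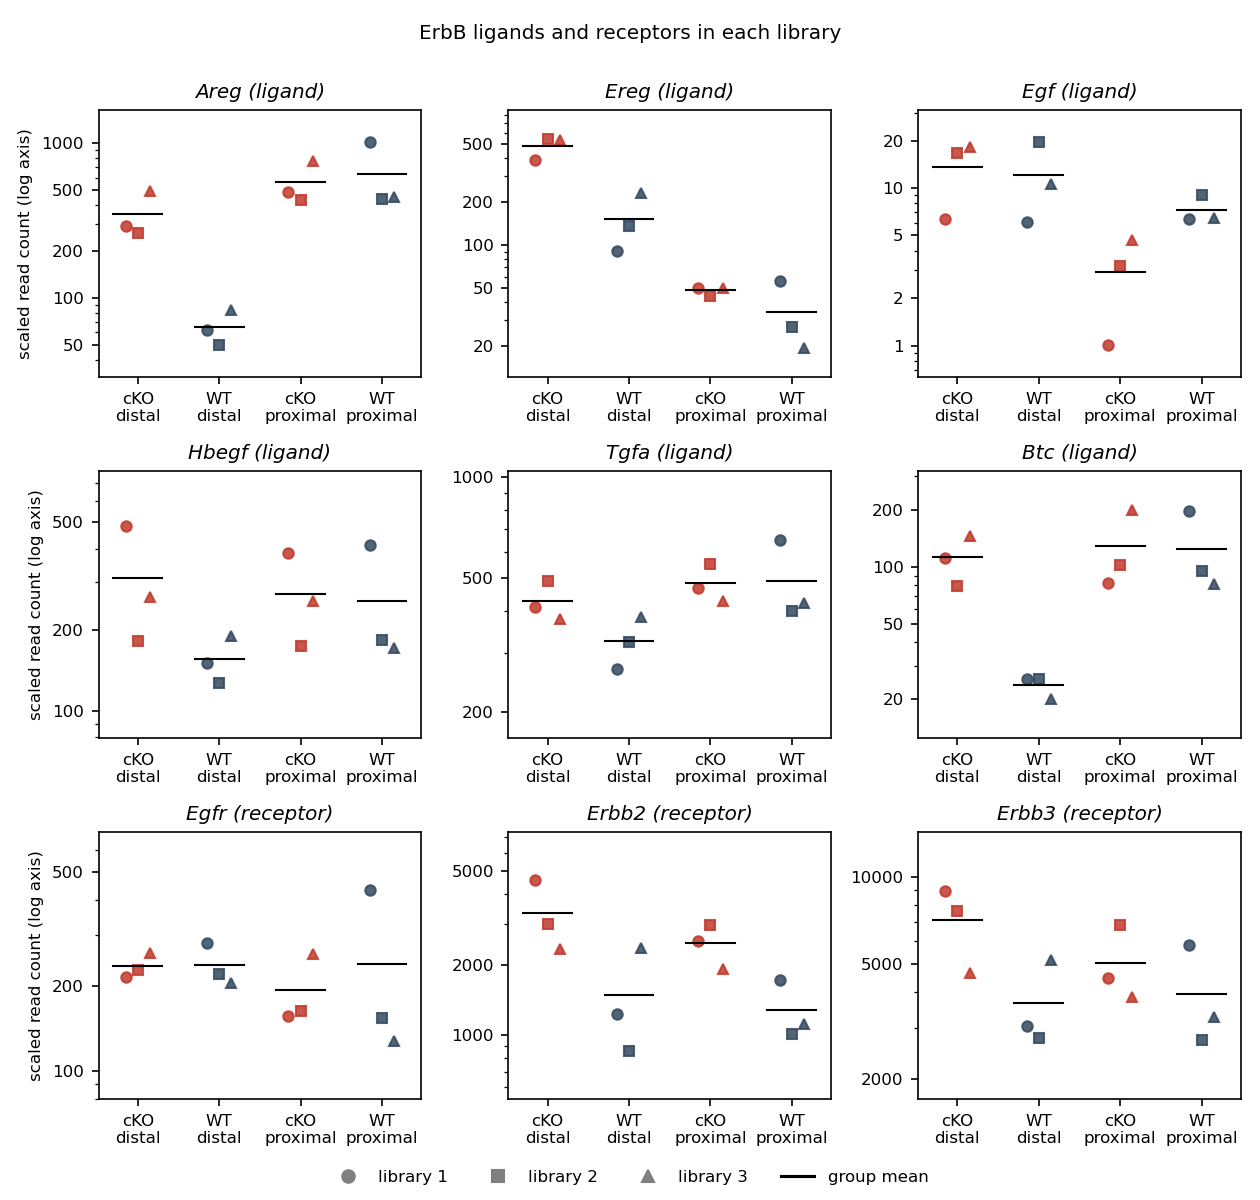
Scaled read counts (log axis) of the 6 ligands and 3 receptors in the 12 libraries. Points are libraries, the shape gives the library number and bars are group means; each panel has its own axis. All cKO distal libraries lie above all WT distal libraries for Areg, Ereg and Btc, 3 of the 9 genes. Of all genes, 34.8% did not overlap between these groups in either direction.

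In distal intestine, 3 ligands and a receptor were higher in cKO than in WT libraries, and none of the 9 members was called lower. Of the 9 members, 4 passed the threshold (limma adjusted p under 0.05 over 17175 genes), all higher, against 25.0% of all genes called in either direction and 13.3% called higher. The median log2 fold change of the 9 members was 0.95, against 0.060 over all genes. The groups did not overlap for 3 of the 9 members, against 34.8% of all genes.

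Areg, which encodes amphiregulin, a ligand that binds EGFR, had 292, 262 and 495 scaled reads in cKO distal libraries and 62.1, 49.3 and 83.3 in WT distal libraries. Every cKO library lay above every WT library. The log2 fold change of Areg was 2.39 ± 0.35 (SE; limma adjusted p = 0.000305), a 5.23-fold difference. Btc, which encodes betacellulin, a ligand of EGFR and ERBB4, had 111, 79.7 and 146 scaled reads in cKO distal libraries and 25.6, 25.7 and 20.03 in WT distal libraries. Again the groups did not overlap, although the WT values rest on 18 to 24 reads a library. The log2 fold change of Btc was 2.16 ± 0.39 (limma adjusted p = 0.0014). Ereg, which encodes epiregulin, also a ligand of EGFR and ERBB4, had 389.9, 542 and 534 scaled reads in cKO distal libraries and 91.3, 135 and 229 in WT distal libraries. The groups were separate, and the WT libraries spread over a wider ratio than the cKO libraries. The log2 fold change of Ereg was 1.77 ± 0.38 (limma adjusted p = 0.00416). Once the mitochondrial share of each library was a covariate it was 1.33 and was not called (limma adjusted p = 0.118). Without both cKO libraries numbered 1, which held no Y-linked reads, all 3 ligands kept their calls, at 2.49 for Areg (limma adjusted p = 0.00256), 2.14 for Btc (0.00878) and 1.92 for Ereg (0.0167).

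Erbb2 was the receptor called in distal intestine. It had 4604, 2988 and 2340.3 scaled reads in cKO distal libraries and 1234, 857 and 2369 in WT distal libraries. WT library 3 lay above cKO library 3, so the groups overlapped. Erbb2 had a log2 fold change of 1.23 ± 0.34 (limma adjusted p = 0.0183). The call was lost without cKO distal library 1 (limma adjusted p = 0.0968), without WT distal library 1 (0.0636), without WT distal library 2 (0.0968), without both cKO libraries numbered 1 (0.126) and with the mitochondrial covariate (log2 fold change 0.68, adjusted p = 0.351). Exons of Erbb2 overlap those of Mien1 on the opposite strand, which stood at 56.5 to 203 scaled reads, and whether the counting used strand is not given in the sources used here.

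Among the members not called in distal intestine, Erbb3 came closest. It had 8934, 7645 and 4673 scaled reads in cKO distal libraries and 3054, 2789 and 5177 in WT distal libraries, with a log2 fold change of 0.95 ± 0.34 (limma adjusted p = 0.0545). The WT library numbered 3 was again within the cKO range. Erbb3 was called without cKO distal library 3 (limma adjusted p = 0.0197), without WT distal library 3 (0.0166) and by DESeq2 on recovered reads (0.0413). Hbegf, the heparin-binding ligand, had 484, 183 and 266 scaled reads in cKO distal libraries and 151, 127 and 189.7 in WT distal libraries, a log2 fold change of 0.89 ± 0.40 (limma adjusted p = 0.119). Tgfa, which encodes transforming growth factor alpha, had 412, 492 and 379 in cKO distal libraries and 268, 324 and 384 in WT distal libraries, a log2 fold change of 0.40 ± 0.21 (limma adjusted p = 0.192). Egfr had 214, 227 and 259 in cKO distal libraries and 281, 219.9 and 205 in WT distal libraries, a log2 fold change of -0.0011 ± 0.36. Egf rested on 5 to 19 reads a library in cKO distal and 4 to 18 in WT distal libraries, with a log2 fold change of 0.19 ± 0.53.

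Markers of other cells moved with the distal comparison. Of 12 epithelial markers, 4 were higher and 0 lower, and their summed level ran from 322232 to 474040 scaled reads in cKO distal libraries and from 203574 to 358308 in WT distal libraries. All 8 B and plasma cell markers were lower, with summed levels of 875 to 3799 in cKO distal libraries and 15813 to 40985 in WT distal libraries. No epithelial or B cell marker was at 0 reads in all 3 libraries of a group. Myeloid markers (4 of 9 lower, 0 higher) summed to 4179 to 6343 in cKO distal and 6483 to 25822 in WT distal libraries, and endothelial markers (1 of 6 lower, 1 higher) to 149 to 208 in cKO distal and 306 to 549 in WT distal libraries. Stem cell markers (2 of 6 lower, 1 higher) summed to 1099 to 1608 in cKO distal and 622 to 1088 in WT distal libraries. Over 18 alternative settings, 0 to 4 of 6 villus tip markers were lower and 0 to 2 higher. Their mean log2(value + 1) was 10.19 ± 1.12 in cKO distal and 11.47 ± 0.53 in WT distal libraries (SD), although their sums overlapped. Of 6 Paneth cell markers 0 to 5 were lower, of 7 T cell markers 1 to 4, and 0 of either were higher. Of 6 enteroendocrine markers 2 to 3 were lower and 0 to 1 higher. The markers of proximal intestine, where Areg and Btc stood higher in WT, summed to 17593 to 36163 in cKO distal and 4544 to 18222 in WT distal libraries, with 2 of 6 higher and 0 lower. In bulk tissue, fewer cells of a type and less RNA per cell cannot be told apart. Beyond the epithelial scaling given next, the part of these markers in the ligand values was not tested. When each library was scaled to its epithelial markers, a setting chosen after seeing the data that moved the median log2 fold change of all genes to -0.51 and the share of higher among called genes to 12.6%, against 53.0% without it, Areg remained called at a log2 fold change of 1.78 (limma adjusted p = 0.00185), Btc at 1.56 (0.0188), Ereg at 1.16 (0.0309) and Erbb2 at 0.62 (0.049).

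**Figure D2:**
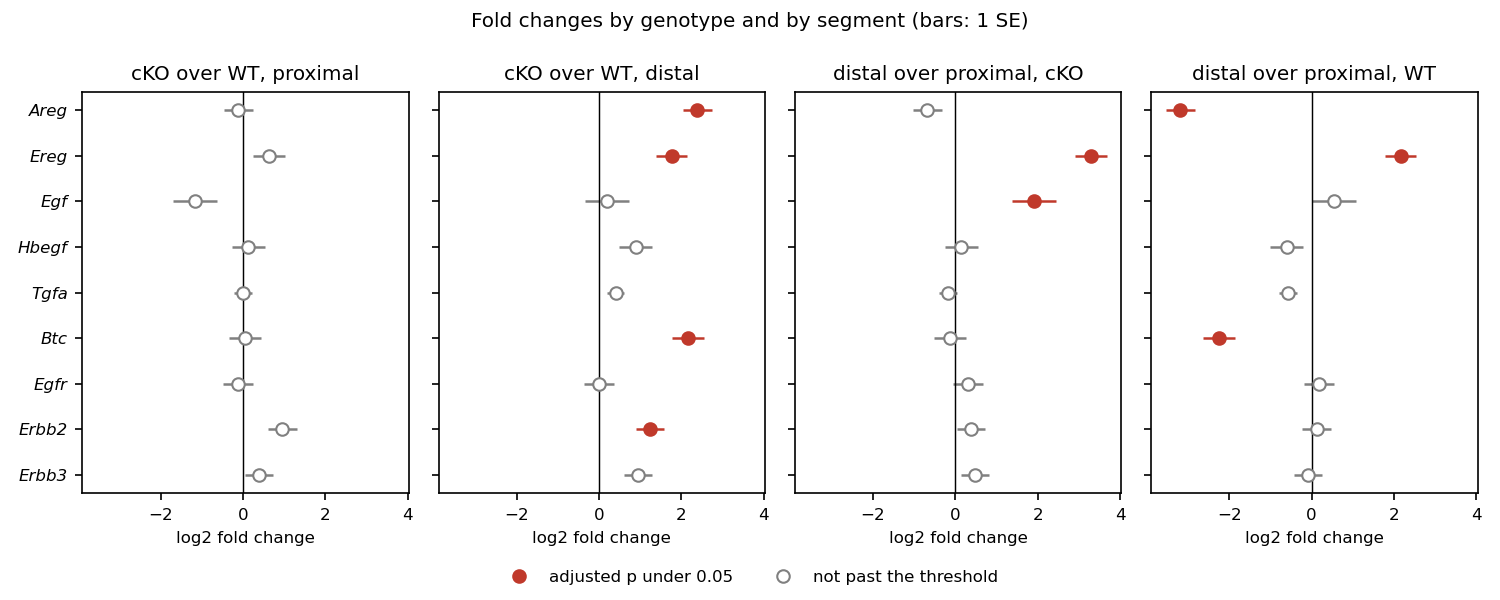
Log2 fold changes of the 9 genes (horizontal axis; bars are 1 SE) in 4 comparisons, with filled points for limma adjusted p under 0.05. Areg, Ereg, Btc and Erbb2 are filled for cKO over WT in distal intestine, and no gene is filled for cKO over WT in proximal intestine.

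In proximal intestine no member passed the threshold between cKO and WT, against 8.26% of all genes (4.21% higher and 4.05% lower). By limma, 2 members had an unadjusted p under 0.05, Egf (0.0459) and Erbb2 (0.0143), and neither edgeR nor DESeq2 on recovered reads called any. The median log2 fold change of the members was 0.045, against 0.084 over all genes, and the groups did not overlap for 2 of 9 members, against 33.9% of all genes. Areg had 484, 428 and 769 scaled reads in cKO proximal libraries and 1028, 437 and 449 in WT proximal libraries. The WT library numbered 1 was the highest of the 6, and the other 2 WT libraries lay within the cKO range. Areg had a log2 fold change of -0.11 ± 0.35 (limma adjusted p = 0.872). Btc had 81.8, 103 and 200.4 in cKO proximal libraries and 197, 95.4 and 81.7 in WT proximal libraries, a log2 fold change of 0.045 ± 0.39 (limma adjusted p = 0.957). Ereg was low in both genotypes, with 50.5, 44.5 and 50.3 in cKO proximal libraries and 55.8, 26.9 and 19.3 in WT proximal libraries, a log2 fold change of 0.63 ± 0.38 (limma adjusted p = 0.321).

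Erbb2 had the smallest p of the members in proximal intestine. It had 2518, 2965 and 1928 scaled reads in cKO proximal libraries and 1719.6, 1011 and 1123 in WT proximal libraries. Every cKO library lay above every WT library. Its log2 fold change was 0.96 ± 0.34 (limma adjusted p = 0.101), and it was called (adjusted p = 0.0387) when only these 6 libraries entered the fit. Erbb3 had 4465, 6819 and 3854 in cKO proximal libraries and 5805, 2739.9 and 3277 in WT proximal libraries, a log2 fold change of 0.39 ± 0.34. Egfr had 157, 163 and 259 in cKO proximal libraries and 433, 154 and 128 in WT proximal libraries, a log2 fold change of -0.12 ± 0.36. The WT library numbered 1 was also the highest of its group for Hbegf and Tgfa. Hbegf had 385, 175 and 256 in cKO proximal libraries and 413, 183 and 172 in WT proximal libraries. Tgfa had 469, 553 and 429.7 in cKO proximal libraries and 652, 401 and 421 in WT proximal libraries. Egf had 0 to 4 reads a library in cKO proximal and 5 to 7 in WT proximal libraries, a depth at which its log2 fold change of -1.17 ± 0.53 (limma adjusted p = 0.189) rests on single reads.

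Markers of other cells moved with the proximal comparison as well. B and plasma cell markers (5 of 8 lower, 0 higher) summed to 979 to 3682 scaled reads in cKO proximal and 5957 to 14079 in WT proximal libraries. Myeloid markers (5 of 9 lower, 0 higher) summed to 3455 to 4740.3 in cKO proximal and 11846 to 18919 in WT proximal libraries. Tuft cell markers (1 of 6 lower, 0 higher) summed to 1053 to 2024 in cKO proximal and 3216 to 7941 in WT proximal libraries. Of 6 enteroendocrine markers, 3 to 4 were lower and 0 higher over 18 alternative settings. Their mean log2(value + 1) was 7.83 ± 0.67 in cKO proximal and 10.04 ± 0.46 in WT proximal libraries (SD, n = 3 each), although their sums overlapped. Stem cell markers (2 of 6 lower, 1 higher, Tnfrsf19 at 0 reads in all 3 cKO libraries) summed to 976 to 1299.96 in cKO proximal and 1396 to 2546 in WT proximal libraries. Over 18 alternative settings, 0 to 3 of 6 villus tip markers were lower and 0 higher. Their mean log2(value + 1) was 12.08 ± 0.55 in cKO proximal and 13.21 ± 0.71 in WT proximal libraries (SD), although their sums overlapped. Of 12 epithelial markers 2 were higher and 0 lower, with sums of 274532 to 306860.3 in cKO proximal and 277520 to 312804 in WT proximal libraries. Brunner gland and stomach markers (0 of 5 called over 18 alternative settings) summed to 198 to 778 in cKO proximal and 11.6 to 1967 in WT proximal libraries. Fibroblast markers (0 to 5 of 9 lower, 0 higher) summed to 2142 to 3589 in cKO proximal and 3164 to 21098 in WT proximal libraries. The WT proximal libraries thus differed among themselves in both. The part of these markers in the values of the members and of the pathway genes below was not tested.

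Along the intestine, Areg and Btc were lower and Ereg higher in distal than in proximal libraries of WT mice. Of the 9 members, 3 passed the threshold, 1 higher and 2 lower, against 24.1% of all genes called in either direction. The groups did not overlap for 4 members, against 38.0% of all genes, and the median log2 fold change of the members was -0.080, against 0.045 over all genes. This comparison shares the WT distal libraries with the genotype comparison in distal intestine, so the values of these 3 ligands in the 2 comparisons are not independent. Areg averaged 64.9 ± 17.1 scaled reads in WT distal and 638 ± 338 in WT proximal libraries (SD, n = 3 each). Its log2 fold change of -3.19 ± 0.35 (limma adjusted p = 2.82e-05) was a 9.12-fold difference. Btc averaged 23.8 ± 3.24 in WT distal and 125 ± 62.9 in WT proximal libraries, with a log2 fold change of -2.24 ± 0.39 (limma adjusted p = 0.00109). Ereg averaged 152 ± 70.3 in WT distal and 34.0 ± 19.2 in WT proximal libraries, with a log2 fold change of 2.16 ± 0.38 (limma adjusted p = 0.00112). Neighbouring genes of the same family on chromosome 5 ran in opposite directions along the WT intestine. B and plasma cell markers moved with this comparison too, 7 of 8 higher, with summed levels of 15813 to 40985 in WT distal and 5957 to 14079 in WT proximal libraries. Over 17 alternative settings, 4 to 5 of 6 enteroendocrine markers were lower and 0 higher. Of 6 smooth muscle markers 3 to 5 were higher and 0 lower, and of 7 T cell markers 3 to 5 were lower and 1 higher. Of 6 Paneth cell markers 1 to 6 were higher and 0 lower. Their sums overlapped, at 8776 to 57379 scaled reads in WT distal and 3087 to 10739 in WT proximal libraries. The part of these markers in the result was not tested.

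The remaining members were not called between the WT segments. Tgfa averaged 325 ± 57.9 scaled reads in WT distal and 491 ± 139.8 in WT proximal libraries, with a log2 fold change of -0.57 ± 0.21 (limma adjusted p = 0.0661). Its groups did not overlap, and it was called by edgeR (adjusted p = 0.0284), by DESeq2 (0.0185), with TMM scaling (0.0294) and without WT distal library 3 (0.0453). Hbegf had a log2 fold change of -0.61 ± 0.40, Egf of 0.54 ± 0.53, Egfr of 0.19 ± 0.36, Erbb2 of 0.12 ± 0.34 and Erbb3 of -0.080 ± 0.34.

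In cKO mice, Ereg and Egf were higher in distal than in proximal libraries and no member was called lower. Of the 9 members 2 passed the threshold, against 10.5% of all genes called in either direction and 4.16% called higher. The groups did not overlap for 2 members, against 30.1% of all genes, and the median log2 fold change of the members was 0.31, against -0.016 over all genes. Ereg averaged 488 ± 85.5 scaled reads in cKO distal and 48.4 ± 3.42 in cKO proximal libraries (SD, n = 3 each). That is a log2 fold change of 3.29 ± 0.38 (limma adjusted p = 5.9e-05), a 9.81-fold difference, and of 3.48 (0.00157) without both cKO libraries numbered 1. Egf, whose product is the founding ligand of EGFR, had 6.36, 16.6 and 18.1 scaled reads in cKO distal libraries and 1.01, 3.18 and 4.66 in cKO proximal libraries. The groups were separate, but the values stand for 5 to 19 reads and 0 to 4 reads a library. The log2 fold change of Egf was 1.90 ± 0.53 (limma adjusted p = 0.0364), and the call was lost without cKO distal library 2 (0.116), cKO distal library 3 (0.121), cKO proximal library 1 (0.164) or cKO proximal library 2 (0.0676), as well as with epithelial scaling (0.087), with the mitochondrial covariate (0.0642), without both cKO libraries numbered 1 (0.078) and in the fit of the cKO libraries alone (0.058). Areg averaged 350.03 ± 127 in cKO distal and 560.2 ± 183 in cKO proximal libraries, a log2 fold change of -0.69 ± 0.35 (limma adjusted p = 0.255). Btc averaged 112 ± 33.0 in cKO distal and 128 ± 63.3 in cKO proximal libraries, a log2 fold change of -0.13 ± 0.39 (limma adjusted p = 0.886). The other 5 members, Hbegf, Tgfa and the 3 receptors, had log2 fold changes between -0.18 and 0.48 and were not called. Cell markers moved between cKO segments as well. Over 18 alternative settings, 2 to 5 of 7 T cell markers were lower and 0 higher, and 0 to 7 of 9 fibroblast markers were higher and 0 lower. Of 6 Paneth cell markers 1 to 6 were higher and 0 lower over these settings. Their sums were 8025 to 28305 scaled reads in cKO distal and 3192 to 3640 in cKO proximal libraries, without overlap. The part of these markers in the result was not tested.

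Libraries of one number carry the same animal name in both segments, so the segment ratio can be read within a number. These ratios restate values of the same libraries as the interaction given below and are no separate evidence for it. The share of all genes whose ratios do not overlap between genotypes was not counted. For Areg the distal level was 0.605, 0.613 and 0.644 of the proximal level in cKO pairs 1, 2 and 3, and 0.0604, 0.113 and 0.185 in WT pairs. The cKO ratios lay close together and all above the WT ratios. For Btc the ratio was 1.36, 0.775 and 0.727 in cKO pairs and 0.13, 0.269 and 0.245 in WT pairs, again with no overlap. For Ereg it was 7.72, 12.2 and 10.6 in cKO pairs and 1.64, 4.997 and 11.8 in WT pairs, which overlapped. For Egf it was 6.29, 5.22 and 3.88 in cKO pairs and 0.964, 2.17 and 1.63 in WT pairs, with the reservation on its few reads.

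**Figure D3:**
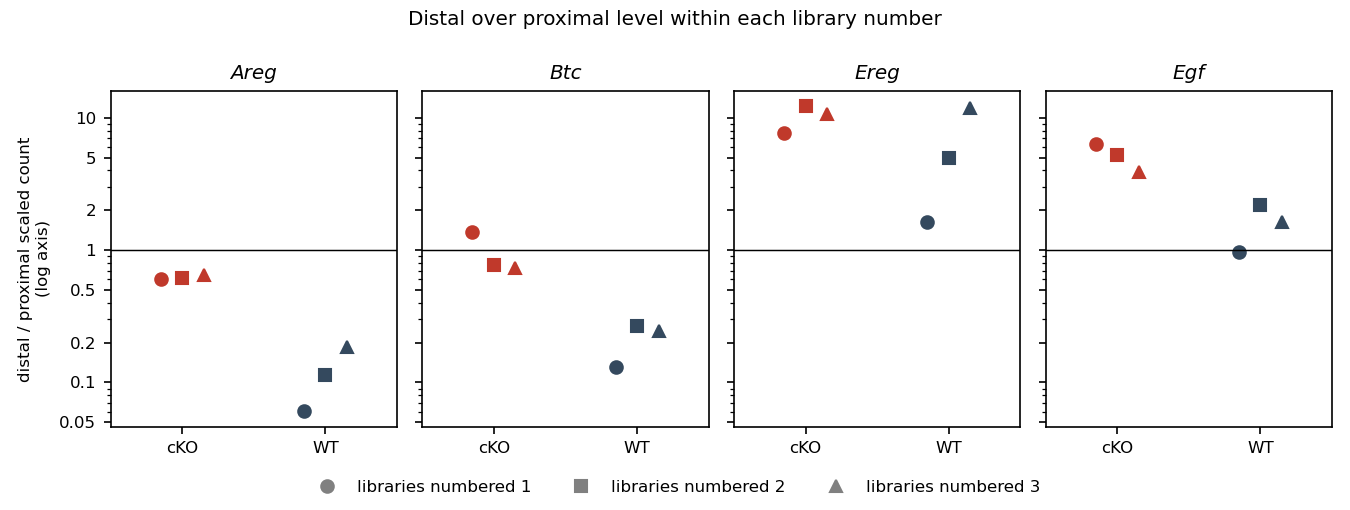
Distal over proximal scaled count (log axis; the line marks equal levels) within each library number, for 4 ligands in cKO and WT mice. Points are the 3 numbered pairs of a genotype. The cKO ratios of Areg, 0.605 to 0.644, lie above the WT ratios, 0.0604 to 0.185. The share of all genes with such a separation was not counted.

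The interaction, the genotype effect in distal minus that in proximal intestine, was called for Areg alone of the 9 members, against 0.576% of all genes. Its estimate was 2.50 ± 0.50 on the log2 scale (limma adjusted p = 0.042), the difference between a genotype effect of 2.39 in distal and -0.11 in proximal intestine. The call was near the threshold: the estimate ran from 2.07 to 2.75 over 23 alternative settings and the adjusted p from 0.000637 to 0.202, and 14 of them did not call it. Without both cKO libraries numbered 1 the estimate was 2.52 and the adjusted p 0.202. Leaving out any 1 of 9 libraries was among these, with adjusted p of 0.115 without cKO proximal library 1, 0.0852 without cKO proximal library 2, 0.0765 without WT proximal library 1, 0.0603 without WT proximal library 2, 0.0826, 0.0684 and 0.056 without cKO distal libraries 1, 2 and 3, 0.0618 without WT distal library 1 and 0.125 without WT distal library 2. Btc had an estimate of 2.11 ± 0.55 (limma adjusted p = 0.0936). The main fit did not use the pairing of segments by animal name. With the animal name as a block, which the design supports between segments, the limma adjusted p of Btc was 0.0248. In that fit 2 members were called, Areg and Btc. Ereg had an estimate of 1.13 ± 0.54 (limma adjusted p = 0.386). The other 6 estimates ran from 0.12 for Egfr to 1.36 for Egf and were not called.

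The makeup of the ligand pool, as shares of the summed scaled reads per kb of the 6 ligands, differed by segment and, in distal intestine, by genotype. Areg made up 50.2% ± 8.18 in cKO distal, 29.9% ± 3.88 in WT distal, 72.1% ± 5.33 in cKO proximal and 75.4% ± 2.01 in WT proximal libraries (SD, n = 3 each). Ereg made up 21.4% ± 5.16 in cKO distal, 19.9% ± 4.95 in WT distal, 1.91% ± 0.352 in cKO proximal and 1.18% ± 0.202 in WT proximal libraries. Ereg thus held a like share of distal ligand reads in both genotypes although its level was higher in cKO. Tgfa made up 12.1% ± 3.64 in cKO distal, 28.3% ± 3.08 in WT distal, 12.5% ± 4.30 in cKO proximal and 11.7% ± 2.14 in WT proximal libraries. In distal intestine the share of Areg was 45.0% to 59.6% in cKO and 25.9% to 33.6% in WT libraries. That of Tgfa was 8.52% to 15.8% in cKO and 26.0% to 31.8% in WT distal libraries, and neither overlapped between genotypes. The summed ligand level was 524, 479.7 and 684 scaled reads per kb in cKO distal libraries and 152, 157 and 228 in WT distal libraries, without overlap. In proximal intestine it was 580.3, 507 and 809 in cKO and 1089.7, 487 and 494 in WT libraries, which overlapped. The summed level of the 3 receptors was 2388, 1864 and 1249 in cKO distal and 769, 648 and 1333 in WT distal libraries, where WT library 3 lay within the cKO range.

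**Figure D4:**
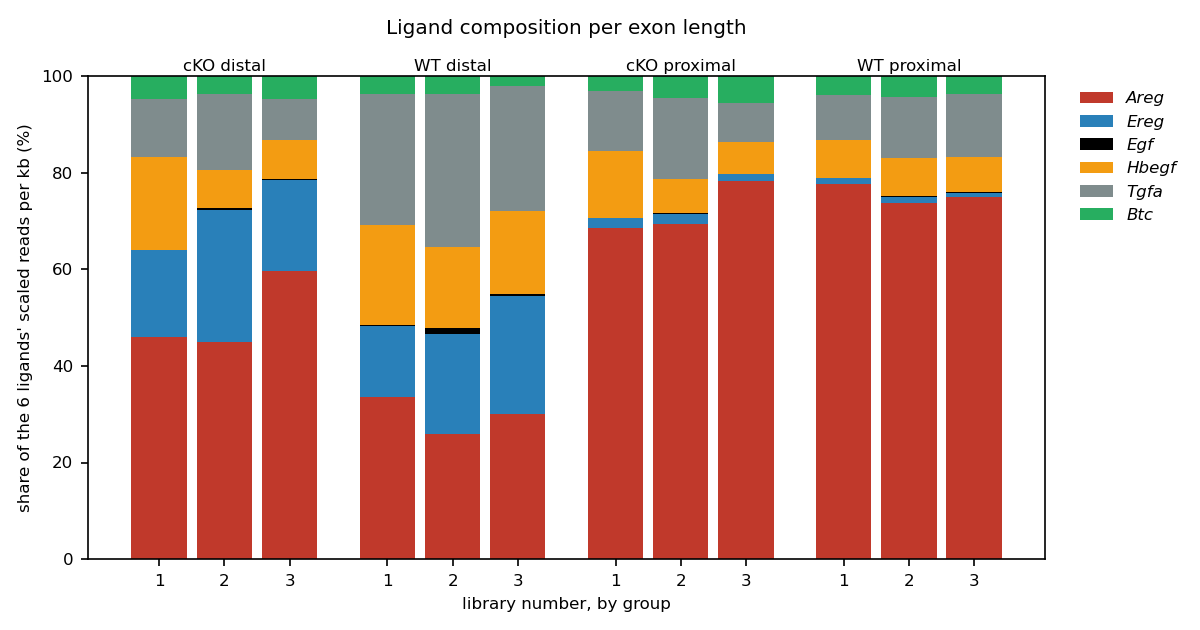
Share of each ligand in the summed scaled reads per kb of the 6 ligands (%), 1 bar per library, by group. Areg takes most of each proximal bar, at 72.1% on average in cKO and 75.4% in WT, and Ereg 21.4% of the cKO distal and 19.9% of the WT distal bars.

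Over the 12 libraries, profiles were compared by the mean absolute difference of log2(value + 1) after centring each gene on its own mean. Erbb2 and Erbb3 were the closest pair of members at 0.25, and Areg and Btc lay at 0.40. Areg and Ereg were the farthest pair at 2.33. Among 12108 other genes, the 2 closest to Areg were Abcc2, a transporter of conjugates (0.33), and Ces2c, a carboxylesterase (0.33). The closest to Btc were Serpinf2, which encodes alpha-2-antiplasmin (0.29), and the transporter gene Abcc3 (0.32). The closest to Ereg were Lpcat4, a lysophospholipid acyltransferase (0.32), and Gask1b (0.39). Erbb2 was nearest to the protease inhibitor gene Spint2 (0.14) and the tight junction gene Cldn3 (0.14), and Erbb3 to Igsf9 (0.12) and Mcoln2 (0.13). Tgfa was nearest to Tom1l2 (0.094) and Wdr13 (0.10), Hbegf to Slc38a10 (0.22) and H2-D1 (0.22), Egfr to Clmn (0.20) and Npas2 (0.22), and Egf to Tln2 (0.39) and Sorcs2 (0.42). These values describe likeness over libraries that share depth and tissue makeup.

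Of the family's other genes, Epgn, Nrg1, Nrg2 and Nrg4 were in the table. None was called between genotypes in either segment by limma, with 1 of the 4 (Nrg1) at an unadjusted p under 0.05 in proximal and 0 in distal intestine, and DESeq2 called 0 in each. Nrg4, a neuregulin that binds ERBB4, was lower distally in both genotypes. It had 43.4, 29.9 and 11.7 scaled reads in cKO distal and 210.1, 143 and 149 in cKO proximal libraries, a log2 fold change of -2.68 ± 0.44 (limma adjusted p = 0.00113). In WT it had 18.3, 14.4 and 32.7 in distal and 73.7, 79.7 and 113 in proximal libraries, a log2 fold change of -2.03 ± 0.44 (limma adjusted p = 0.00435). Nrg1 had 0 reads in all 3 cKO proximal libraries. Beside Ereg, the antisense gene Gm19610 overlaps the start of Ereg by 152 bp and stood at 1.06 to 19.1 scaled reads.

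Genes listed here as feedback inhibitors of the pathway included several that were higher in cKO. Of 17 feedback inhibitors of ErbB and MAPK signalling, 7 were higher and 1 lower in distal intestine, against 13.3% of all genes higher and 11.7% lower, with a median log2 fold change of 0.53 against 0.060 over all genes. In proximal intestine 4 were higher and 0 lower, against 4.21% and 4.05% of all genes, with a median of 0.39 against 0.084. Over 18 alternative settings, 2 to 7 were higher and 1 to 3 lower in distal intestine. In proximal intestine 1 to 6 were higher and 0 to 1 lower. Lrig3 is of a family of transmembrane proteins whose member LRIG1 promotes the degradation of ErbB receptors, and its own effect on them was not measured here. Lrig3 had 1611, 1316 and 1191 scaled reads in cKO distal and 177, 182 and 381 in WT distal libraries. Its log2 fold change was 2.56 ± 0.26 in distal (limma adjusted p = 2.81e-05) and 1.49 ± 0.26 in proximal intestine (0.00461). Lrig1 had 557, 589.9 and 505 in cKO distal and 144, 184 and 255 in WT distal libraries, with a log2 fold change of 1.54 ± 0.23 (limma adjusted p = 0.000303), and of 1.68 ± 0.23 in proximal intestine (0.000862). The groups of both genes were separate, and the call of Lrig1 was kept in all 18 alternatives in each segment.

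Errfi1, which encodes MIG6, an inhibitor of the EGFR kinase, had 975, 770.0 and 982 scaled reads in cKO distal and 403, 417 and 454 in WT distal libraries. Its log2 fold change was 1.09 ± 0.19 in distal (limma adjusted p = 0.000993) and 1.03 ± 0.19 in proximal intestine (0.00575). Errfi1 was also lower distally than proximally in cKO (log2 fold change -1.39 ± 0.19, limma adjusted p = 0.000248) and in WT (-1.45 ± 0.19, 0.000112). Spry2, a Sprouty inhibitor of Ras-MAPK signalling, had 217, 261 and 201 in cKO distal and 88.9, 75.02 and 94.9 in WT distal libraries, a log2 fold change of 1.38 ± 0.21 (limma adjusted p = 0.000391). It was lower distally than proximally in WT, at -1.26 ± 0.21 (limma adjusted p = 0.000742). Of the 17 inhibitors, 2 were higher and 3 lower distally in WT, against 11.9% and 12.2% of all genes. Spred1 was among those higher (0.98 ± 0.19, limma adjusted p = 0.00253). In cKO 2 were higher and 1 lower, against 4.16% and 6.36% of all genes. Those higher were Spry1 (1.56 ± 0.35, limma adjusted p = 0.0111) and Lrig3 (0.91 ± 0.26, 0.0413). Of 18 alternatives, 3 did not call Spry1 and 8 did not call Lrig3. Cblc, of the Cbl ubiquitin ligases, was called in proximal intestine at 0.85 ± 0.24 (limma adjusted p = 0.0471), and 10 of 18 alternatives did not call it, among them leaving out any of 5 single libraries (adjusted p 0.0788 to 0.156). With epithelial scaling the distal calls of Errfi1 (0.48, limma adjusted p = 0.123) and Spry2 (0.77, 0.0554) were lost. With the mitochondrial covariate the proximal calls of Lrig3 (1.12, 0.0943) and Errfi1 (0.98, 0.0632) were lost, and 1 inhibitor was called there.

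**Figure D5:**
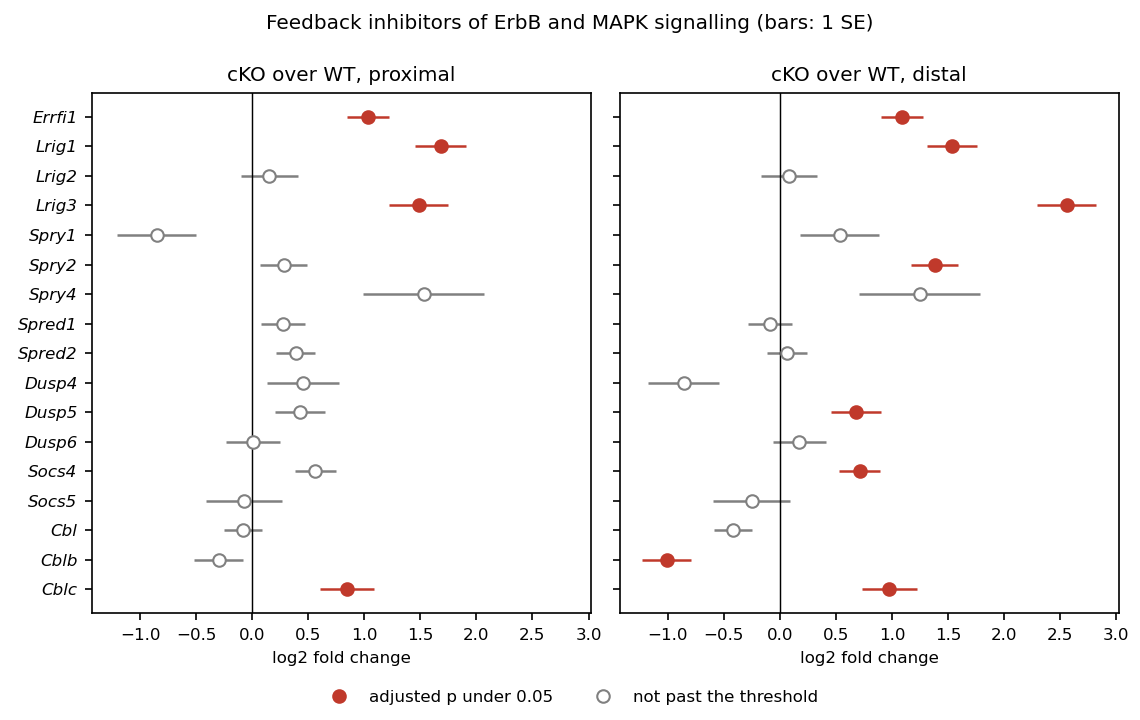
Log2 fold changes of cKO over WT (horizontal axis; bars are 1 SE) for 17 feedback inhibitors in proximal and distal intestine, with filled points for limma adjusted p under 0.05. In distal intestine 7 filled points lie right of 0 and that of Cblb lies left of it.

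In the other arms of the pathway, calls between genotypes are to be read against 25.0% of all genes called in distal and 8.26% in proximal intestine. Of 10 genes of ligand shedding, Rhbdf2, which encodes iRhom2, a partner needed for ADAM17 to mature, was higher in cKO in distal (log2 fold change 0.93 ± 0.19, limma adjusted p = 0.00293) and in proximal intestine (1.001 ± 0.19, 0.0071). Its distal call was lost with epithelial scaling (0.32, adjusted p = 0.302) and its proximal call with the mitochondrial covariate (0.0606). Adam19 was lower in cKO distal intestine (-1.86 ± 0.36, limma adjusted p = 0.00216), a call lost with the mitochondrial covariate (0.0631). Of 19 adaptors and Ras-MAPK kinases, 1 was higher and 1 lower in distal intestine, Gab1 (1.05 ± 0.20, limma adjusted p = 0.00207) and Grb2 (-0.84 ± 0.18, 0.00404), and 0 were called in proximal intestine, where 3 had an unadjusted p under 0.05 and edgeR and DESeq2 called 0. The Gab1 call was lost with epithelial scaling (0.44, adjusted p = 0.10) and with the mitochondrial covariate (0.67, 0.078). Of 14 MAPK-induced transcripts, Phlda1 alone was called, with 149, 78.0 and 131 scaled reads in cKO distal and 43.8, 46.2 and 50.6 in WT distal libraries (limma adjusted p = 0.00596), and its call was lost with epithelial scaling (0.68, 0.155) and without both cKO libraries numbered 1 (1.09, 0.056). In proximal intestine limma called 0 of the 14, with 1 (Ier2) at an unadjusted p under 0.05, and DESeq2 called 1. Of 11 genes of the PI3K and Akt arm, Pik3cd, whose product is found mainly in leukocytes, was lower in distal (-2.29 ± 0.31, limma adjusted p = 0.000181) and in proximal intestine (-1.29 ± 0.31, 0.0246), beside the lower B and plasma cell and myeloid markers given above for each segment. Its proximal call was lost without cKO proximal library 2 (0.105), cKO proximal library 3 (0.0897), WT proximal library 2 (0.0997) or WT proximal library 3 (0.0906), and with the mitochondrial covariate (0.206).

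Between segments, 2 of the 14 MAPK-induced transcripts were higher and 3 lower distally in WT, against 11.9% and 12.2% of all genes. In cKO 1 was higher and 0 lower, against 4.16% and 6.36% of all genes. Ccnd1, the cyclin D1 gene that MAPK signals induce, was higher distally in both genotypes. It had 632, 1079 and 676 scaled reads in cKO distal and 102, 111 and 82.9 in cKO proximal libraries, a log2 fold change of 2.97 ± 0.35 (limma adjusted p = 7.41e-05). In WT it had 433, 464 and 398 in distal and 33.7, 89.8 and 109 in proximal libraries, a log2 fold change of 2.62 ± 0.35 (limma adjusted p = 0.00014). Fos, an immediate early gene, was lower distally in WT (-1.86 ± 0.31, limma adjusted p = 0.00082), and in cKO its log2 fold change was -0.94 ± 0.31 (0.0736). In WT, Myc was higher distally (1.03 ± 0.28, limma adjusted p = 0.0158) and Phlda1 lower (-1.18 ± 0.29, 0.00956). Of the shedding, adaptor, kinase and PI3K genes, Grb2 was called higher distally in WT (0.57 ± 0.18, limma adjusted p = 0.0322). Map2k2 (-0.78 ± 0.24, 0.0299), Frmd8 (-0.72 ± 0.17, 0.00751) and Pik3cb (-0.66 ± 0.18, 0.0184) were called lower. Of the 6 pathway lists, 0 genes were called for the interaction by limma, with 5 of 17 feedback inhibitors at an unadjusted p under 0.05, led by Spry2 at 1.10 ± 0.30 (limma adjusted p = 0.104). On recovered reads edgeR called 0 in any of the 6 lists, and DESeq2 called 2 of the 17 feedback inhibitors and 1 of the 19 adaptors and kinases.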

How the data were processed

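RNA from proximal and distal small intestine of Bmpr1a cKO and WT mice was sequenced, 3 libraries in each of 4 groups. Per the labels' protocols, Trizol served for extraction and the Ovation RNA-Seq System V2 for library preparation. The submitters' processing notes name STAR, DESeq2 1.28.1 and the build mm10; STAR's version and any filter on rows are not given in the sources used here. The table the authors deposited holds a signal per gene and library. All 206100 deposited values were whole multiples of their column's step, within 0.001 steps, so each was read as (reads + 1) divided by a size factor, and whole reads were recovered. All 12 sample columns were matched by name.

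All 12 libraries entered one limma fit (version 3.58.1 under R 4.3.3, trended empirical Bayes) of 4 group means to log2(value + 1), called at a Benjamini-Hochberg adjusted p under 0.05 over 17175 genes. Fold changes are on that scale, which understates those of genes with few reads. The filter was a value of at least 1 in 3 libraries. Alternatives were TMM scaling, pseudocounts of 0.5 and 4, other filters, only the groups compared, edgeR 4.0.16 and DESeq2 1.42.0 on recovered reads, a mitochondrial covariate, libraries left out, a block, and, chosen after seeing the data, scaling to epithelial markers. The scripts were tested on simulated data. Positions are from GENCODE M21 (GRCm38), which held 17158 of the identifiers.

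Libraries of one number share an animal name between segments, and their deviations from the group means correlated at 0.246 to 0.439 over 12610 genes, so the numbers pair the samples there. Between genotypes the correlations were -0.201 to 0.0937, and the numbers were not taken as pairs. The members and gene lists were chosen with earlier results of these data known. Named were all 9 members, from each pathway list up to 4 genes with the smallest p in a comparison, called genes first, and for each member the 2 genes with the most similar profile among those with a mean log2 value of at least 4, leaving out predicted genes; Gm19610 and Mien1 were added for their position. The authors also deposited a log2 fold change, its standard error and a statistic (2 score columns), and p-values of a comparison that the file headers do not name; these were not used here.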

Additional observations from a re-analysis of the deposited data

Results flagged for a closer look

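The genotype effect on Areg passed the threshold in a test of its difference between segments, close to that threshold. The interaction was 2.50 on the log2 scale (SE 0.50, limma adjusted p = 0.042). In distal intestine the group mean of Areg was higher in cKO than in WT by 2.39, and all 3 cKO libraries lay above every WT library. In proximal intestine the difference was -0.11 with overlapping groups. Over 23 alternative settings its adjusted p ran from 0.000637 to 0.202, and 14 of the 23 did not call it, among them leaving out any of 9 single libraries. No other member passed the threshold in this fit, which did not use the pairing of segments by animal name. With the animal as a replicate block Areg was called as well. Btc was called with that block (estimate 2.11, limma adjusted p = 0.0248) and by DESeq2 on recovered reads (0.0182).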

How the results depend on the processing

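Counts of called members kept within 1.5 times of the reported count except as follows. In proximal intestine, fitting only the groups compared gave 1 in place of 0. In distal intestine, the mitochondrial covariate gave 2 in place of 4. Between cKO segments the count was 1 in place of 2 with a mean value of at least 10, with only the groups compared, with epithelial scaling, with the mitochondrial covariate and without both cKO libraries numbered 1, and 1 to 2 with single libraries left out. The interaction count was 0 in place of 1 with a mean value of at least 10, epithelial scaling, edgeR, the mitochondrial covariate and without both cKO libraries numbered 1, 2 with DESeq2 and with the replicate block, and 0 to 1 with single libraries left out. The cause was not tested. Between genotypes the numbers pair nothing in the design; with the number as a block 0 members were called in proximal and 5 in distal intestine, where Hbegf joined (limma adjusted p = 0.0305), and Cblc was lost in proximal intestine (0.0584). With the animal block, 3 and 2 members were called between WT and between cKO segments, and no member call was lost.

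Signs turned only for members that were not called in the comparison concerned. Proximal, cKO over WT: Hbegf was -0.038 with epithelial scaling, -0.015 with edgeR, -0.30 with the mitochondrial covariate and -0.15 without both cKO libraries numbered 1; Tgfa was -0.10 with TMM, -0.17 with epithelial scaling, -0.14 with edgeR, -0.12 with DESeq2 and -0.28 with the covariate. Btc was -0.061 with TMM, -0.13 with epithelial scaling, -0.057 with edgeR and -0.036 with DESeq2; Egfr was 0.0096 without both cKO libraries numbered 1 and Erbb3 -0.17 with the covariate. Distal, cKO over WT: with epithelial scaling Egf was -0.36 and Tgfa -0.21, and without both cKO libraries numbered 1 Egfr was 0.0595. Distal over proximal: Erbb3 was 0.15 in WT with the covariate, and in cKO Hbegf was -0.21 and Egfr -0.049 with epithelial scaling. For the interaction under epithelial scaling, Tgfa was -0.040, Egfr -0.32 and Erbb2 -0.17. With single libraries left out, values for cKO over WT in proximal intestine ran from -0.37 to 0.29 for Areg, -0.15 to 0.54 for Hbegf, -0.12 to 0.23 for Tgfa, -0.33 to 0.43 for Btc, -0.46 to 0.42 for Egfr. Those in distal intestine ran from -0.19 to 0.62 for Egf, -0.095 to 0.13 for Egfr. Those for distal over proximal in cKO ran from -0.23 to 0.47 for Hbegf, -0.40 to 0.25 for Btc. Those for distal over proximal in WT ran from -0.15 to 0.73 for Egfr, -0.28 to 0.45 for Erbb2, -0.36 to 0.24 for Erbb3. Those for the interaction ran from -0.42 to 0.46 for Egfr, -0.064 to 0.67 for Erbb2.

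Over all genes, calls ran from 292 to 2304 in proximal and from 1356 to 4954 in distal intestine, from 862 to 3140 between cKO segments and from 2741 to 4935 between WT segments, and from 2 to 594 for the interaction, so an adjusted p near the threshold moves with the setting. The share of higher among called genes moved by over 10 points with epithelial scaling in proximal (37.0%, against 51.0%) and distal intestine (12.6%, against 53.0%), between cKO segments (12.8%, against 39.5%) and for the interaction (14.4%, against 30.3%), where TMM gave 41.8%; edgeR gave 40.6% and DESeq2 40.7% in proximal intestine, and the mitochondrial covariate 31.3% in distal intestine. Without both cKO libraries numbered 1 it was 39.1% in distal intestine and 0% of 2 calls for the interaction, without WT distal library 1 it was 42.1% in distal intestine, and for the interaction it ran from 19.3% to 59.0% with single libraries left out. Depth limits Egf (0 to 19 reads a library) most, and Btc in WT distal libraries (18 to 24 reads).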
